A study of Mus musculus with 25 samples.

Results

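Between fetal liver and adult bone marrow, 500 autosomal 1-kb tiles of the haematopoietic stem cell genome became methylated by at least 20 percentage points in every comparison of an adult with a fetal library. They are 500 of the 100896 tiles with at least 3 CpGs of 5 or more reads in all 6 fetal, young and old libraries. A tile was a member where its level, the methylated reads as a percent of all reads over its CpGs, was at least 20 points higher in each of the 4 young and old libraries than in each of the 2 fetal libraries. The tiles were chosen by the levels in these 6 libraries, so their levels are given as a description with no test; the other 19 libraries did not choose them. The reverse rule found 537 tiles that lost methylation, which serve as a comparison.

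Methylation was read by reduced representation bisulfite sequencing (RRBS), which samples CpG-rich restriction fragments, in haematopoietic stem cells (HSCs) of C57Bl/6 mice. The fetal group was taken from liver at e14.5 (n = 2), the young group from marrow of mice aged 3.5 months (n = 2) and the old group at 25 months (n = 2). Transplanted groups are named by the donor cells given: 10 young (n = 3), 50 young (n = 1), 500 young (n = 1), 10 old (n = 2), 50 old (n = 1) and 500 old (n = 3). Mice that began at 3.5 months and were followed for 6 more months had 0 (n = 3), 2 (n = 3) or 4 (n = 2) doses of 5-fluorouracil (5-FU), a drug that kills dividing cells. Nothing in the labels says that libraries of a group came from separate animals, so p-values measure the spread between these libraries. The cells are named HSCs by the labels, and RRBS holds no marker expression with which to check that name; a change in the mixture of cells and a change within cells cannot be told apart.

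A haematopoietic stem cell renews itself and gives rise to all blood lineages; in the fetal liver it divides often, and in adult bone marrow it is mostly quiescent. DNA methyltransferases place methyl groups on the cytosine of CpG pairs and copy them at each division, while promoters rich in CpGs usually stay free of methylation. A level in bulk cells is an average over the cells collected, and serial division or transplantation is a setting in which such levels can be followed.

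Promoters show where the gain lay relative to gene starts. No annotation of the files' build (mm9) was used; instead RefSeq promoter sequences (GRCm38.p6) were placed by the spacing of their CpGs among the measured CpGs, which placed 6652 promoters of 5922 genes, so a tile with no named gene may still lie near one. Printed first are promoters beside members, 5′ to 3′ along the gene, with the CpGs that had 5 or more reads in all 6 libraries in capitals.
Runx1: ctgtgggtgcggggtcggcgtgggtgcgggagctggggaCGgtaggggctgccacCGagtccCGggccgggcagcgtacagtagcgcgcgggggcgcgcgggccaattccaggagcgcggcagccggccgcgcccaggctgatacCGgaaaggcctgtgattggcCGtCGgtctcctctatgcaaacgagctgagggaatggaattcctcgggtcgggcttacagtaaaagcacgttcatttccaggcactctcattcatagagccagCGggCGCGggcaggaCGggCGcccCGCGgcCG
Zfp503: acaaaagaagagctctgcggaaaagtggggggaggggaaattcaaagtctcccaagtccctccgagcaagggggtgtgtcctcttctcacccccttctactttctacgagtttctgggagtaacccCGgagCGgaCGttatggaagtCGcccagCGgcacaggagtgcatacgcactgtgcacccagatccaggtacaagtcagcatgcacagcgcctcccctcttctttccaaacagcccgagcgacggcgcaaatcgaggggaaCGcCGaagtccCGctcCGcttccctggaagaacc
These lay next to members but stayed nearly unmethylated themselves. At the placed Runx1 promoter, 14 CpGs were measured, with a mean level per CpG of at most 3.75% in the adult libraries and at most 5.19% in the fetal libraries. At the Zfp503 promoter, the same means of the 9 measured CpGs reached at most 4.75% over the adult and 15.1% over the fetal libraries.
The promoters that follow have their start inside a member tile.
Gm13205: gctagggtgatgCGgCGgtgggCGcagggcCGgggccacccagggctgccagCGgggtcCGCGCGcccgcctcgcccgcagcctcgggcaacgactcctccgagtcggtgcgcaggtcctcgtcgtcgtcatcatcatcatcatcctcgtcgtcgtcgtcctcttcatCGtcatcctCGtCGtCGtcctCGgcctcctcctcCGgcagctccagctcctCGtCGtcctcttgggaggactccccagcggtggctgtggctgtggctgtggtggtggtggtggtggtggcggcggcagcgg
Alpk3: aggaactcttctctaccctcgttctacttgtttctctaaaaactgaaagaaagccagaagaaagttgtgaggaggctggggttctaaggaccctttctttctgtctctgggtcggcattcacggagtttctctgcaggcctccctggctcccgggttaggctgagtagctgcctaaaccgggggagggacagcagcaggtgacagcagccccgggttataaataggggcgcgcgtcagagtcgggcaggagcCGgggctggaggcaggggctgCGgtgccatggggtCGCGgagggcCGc
Gm35510: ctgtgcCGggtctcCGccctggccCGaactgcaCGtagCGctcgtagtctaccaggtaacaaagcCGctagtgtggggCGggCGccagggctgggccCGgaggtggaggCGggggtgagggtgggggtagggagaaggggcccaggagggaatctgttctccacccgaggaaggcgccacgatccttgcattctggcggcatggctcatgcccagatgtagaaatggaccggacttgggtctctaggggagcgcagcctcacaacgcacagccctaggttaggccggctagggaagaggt
All the capital CpGs of these 3 lay inside the members. In Gm13205, a predicted gene, the means of the 16 measured CpGs ranged from 37.6% to 74.2% over the adult and from 0% to 37.1% over the fetal libraries. Single libraries went further: young replicate 2 was at 0% at position 148326617, and old replicate 1 at 100% at position 148326458. In Alpk3, an alpha-kinase known from heart muscle, the means of the 5 CpGs ranged from 46.2% to 91.6% over the adult and from 0% to 42.9% over the fetal libraries. In Gm35510, another predicted gene, the means of the 10 CpGs ranged from 35.9% to 96.0% over the adult and from 12.8% to 69.9% over the fetal libraries. Single libraries went further in these promoters too. Single CpGs here rested on as few as 5 reads. The other promoters with a start in a member, of Slc6a9 and Gm32273, are not printed. The means of their measured CpGs ranged from 68.0% to 96.5% and from 59.5% to 89.5% over the adult libraries. Over the fetal libraries they ranged from 35.3% to 88.2% and from 7.14% to 87.8%. Of the 7 measured in Slc6a9, 5 lay inside the member.

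A placed start fell inside 5 members (1% of members, against 5.41% of all tiles), and within 5 kb of 53 (10.6%, against 12.2% of all tiles, a similar share). Of those 53, 29 lay downstream of the start and 19 upstream. Of 107 genes of the RefSeq table on lists of stem cell, fetal, myeloid, lymphoid, erythroid and platelet, Hox, methylation, polycomb and cell cycle genes, 39 had a placed promoter, and Runx1 was the 1 gene of these with a member within 5 kb. Other neighbours, picked after their values were seen, are given as examples. Hes5, a repressor switched on by Notch, had a member 2032 bp upstream of its start at 14.48% in fetal, 48.5% in young and 80.9% in old libraries. Dll4, a Notch ligand, had one 1520 bp upstream at 9.64% in fetal, 33.1% in young and 61.1% in old libraries. Wnt10b, a Wnt ligand, had one 3581 bp downstream at 34.5% in fetal, 83.8% in young and 91.6% in old libraries. Upstream of Runx3, which encodes a relative of Runx1, a member 4460 bp away was at 23.1% in fetal, 66.4% in young and 67.4% in old libraries.

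As a description, the median member was at 37.7% in fetal, 74.9% in young and 81.7% in old libraries, and the median gain from the fetal to the adult mean was 35.6 points (21.8 to 86.9). Most members started part-methylated rather than bare: 94 had a fetal mean under 20%, 176 were between 20% and 40%, 180 between 40% and 60%, and 50 at 60% or more. At least 80% was reached in the adult mean by 239. The members held few CpGs, with a median of 4 (3 to 47), and their least covered library had a median of 116.5 reads (15 to 1012). Old libraries stood above young ones in 436 of 500 members (87.2%, against 76.3% of all tiles), and by 10 points or more in 139 (27.8%, against 9.47% of all tiles); the order of old and young was not part of the rule, but their levels share its libraries.

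Most members lay in no run of neighbouring members. There were 22 runs of 2 neighbouring members (44 tiles), and none longer. RRBS left many tiles beside members unmeasured, and a neighbour that gained less than the threshold of the rule also ended a run. Whether the gain itself was patchy along the chromosome thus cannot be told from these runs. The 199 measured tiles that adjoin a member without being one gained a median of 3.14 points, against 0.706 over all tiles, and in 106 (53.3%, against 24.5%) every adult library stood above every fetal one.

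Just inside the threshold of the rule, the smallest adult level exceeded the largest fetal one by 20.1 points in the tiles chr12:53114001-53115000, chr11:112059001-112060000 and chr7:122597001-122598000. Just outside it, the same gap was 19.994, 19.971 and 19.968 points in chr15:102196001-102197000, chr5:138713001-138714000 and chr4:128693001-128694000.

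**Figure D1:**
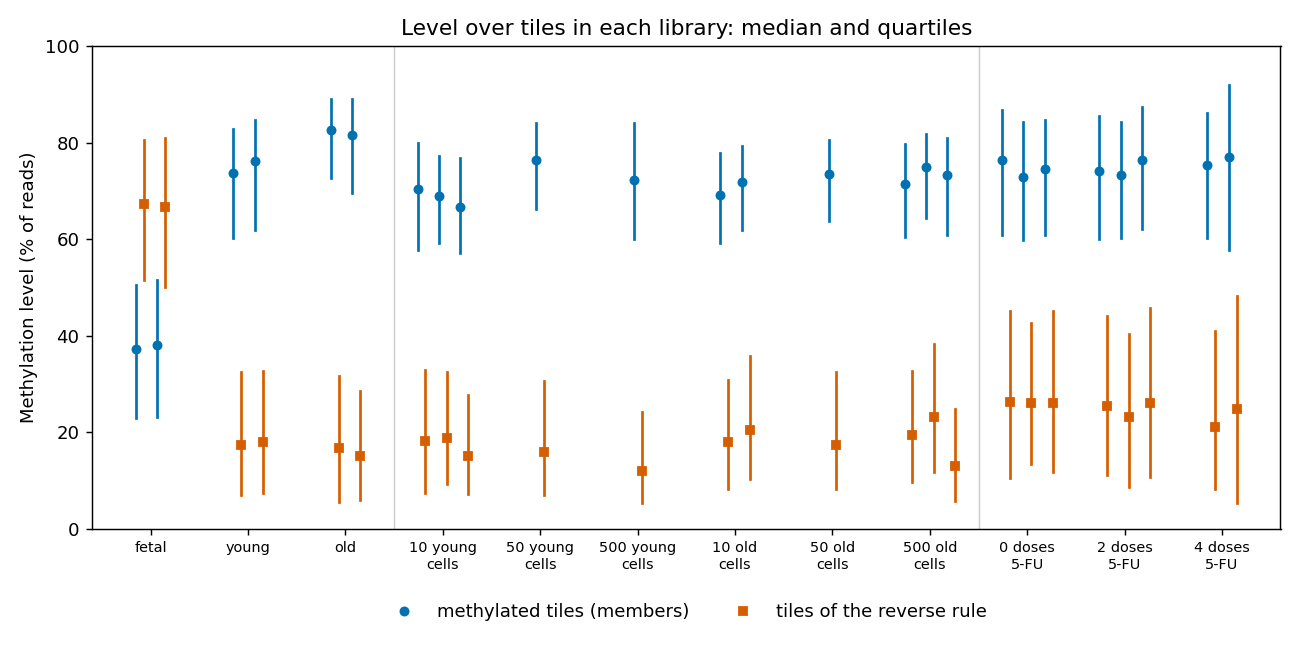
Methylation level in percent of reads (y) in each of the 25 libraries (x, by group); points are medians and bars quartiles over the 500 members (blue circles) and the 537 tiles of the reverse rule (orange squares) with enough CpGs. The members' medians lie between 66.7% and 82.7% in the libraries after birth, against 37.2% and 38.0% in the fetal ones.

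The largest gain was at Runx1. The tile chr16:92696001-92697000, 574 bp downstream of the placed start of Runx1, a transcription factor needed for HSCs to arise, was at 1.54% and 1.03% in fetal, 86.5% and 89.0% in young, and 91.5% and 85.8% in old libraries. Its neighbour chr16:92695001-92696000 was at 3.39% and 1.97% in fetal, 77.8% and 69.0% in young, and 73.7% and 83.1% in old libraries. At the placed promoter, printed above, the mean of each measured CpG over the adult libraries was at or under 3.75%, so the gain was measured downstream of it. No other Runx1 promoter was placed, so this start need not be the only one of the gene. After transplantation the first Runx1 tile was at 80%, 81.0% and 84.3% from 10 young cells, 90.1% from 50 young cells, 82.5% from 500 young cells, 78.6% and 89.96% from 10 old cells, 87.0% from 50 old cells and 60.6%, 73.7% and 76.5% from 500 old cells. It was at 94.2%, 83.5% and 76.7% with 0 doses, 92.0%, 92.2% and 86.0% with 2 doses and 83.6% and 100% with 4 doses. All 19 libraries lay far above both fetal ones. The second Runx1 tile was at 63.8%, 83.0% and 63.9% with 0 doses, 70%, 43.3% and 93.1% with 2 doses, and 19.8% and 24.0% with 4 doses. Both 4-dose libraries lay below all 0-dose libraries, by 44.4 points over the CpGs tested in that fit, but this did not pass over all tiles (quasi-binomial F test, Benjamini-Hochberg adjusted p = 0.755, unadjusted 0.0121).

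Ranks 2 and 4 to 10 by gain were chr15:31227001-31228000, chr1:173123001-173124000, chr8:11279001-11280000, chr19:5751001-5752000, chr16:30121001-30122000, chr17:26576001-26577000, chr19:6905001-6906000 and chr19:55971001-55972000, with adult means 60 points or more above fetal for 18 members in all. The tile of rank 5, chr8:11279001-11280000, was at 17.2% and 13.97% in fetal, 78.8% and 81.6% in young, and 90.5% and 91.3% in old libraries. After transplantation it was between 28.8% (500 young cells) and 59.6% (a library of 10 young cells), and it was at 45.8%, 45.1% and 34.5% with 0 doses, 40.6%, 34.7% and 37.0% with 2 doses and 52.9% and 52.5% with 4 doses. All 19 libraries thus lay between the fetal and the adult ranges.

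**Figure D2:**
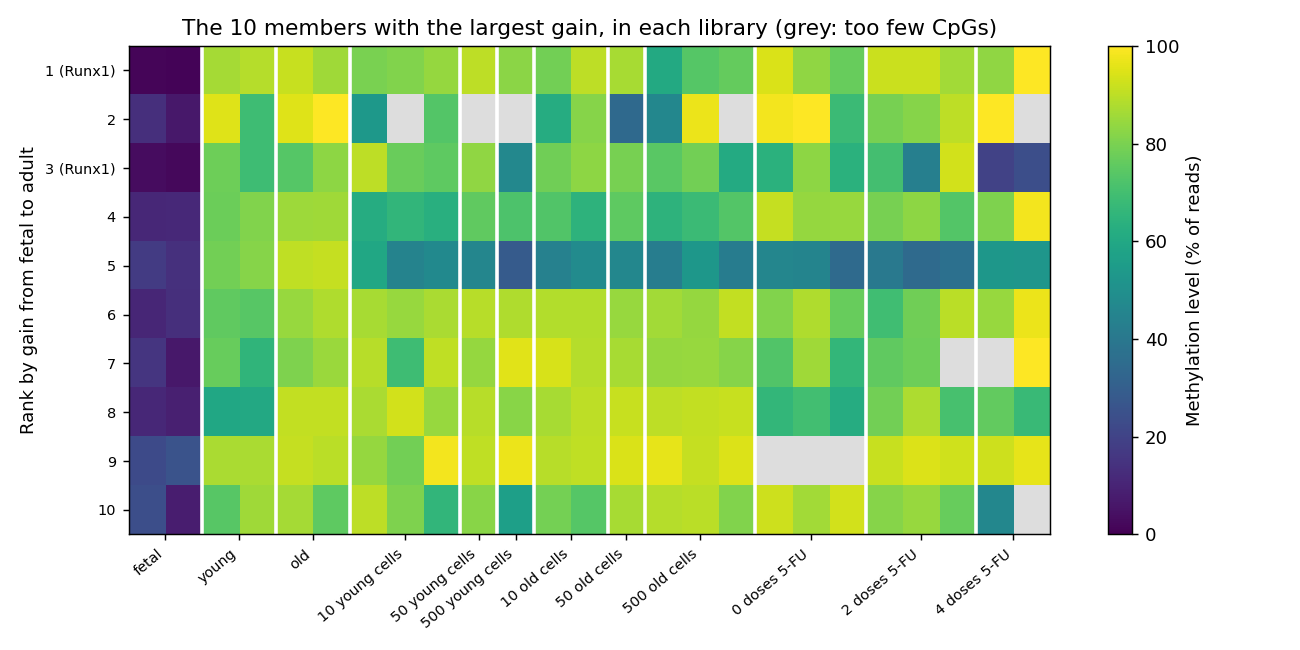
Methylation level in percent of reads (colour) of the 10 members with the largest gain (rows, rank 1 at the top) in each library (columns, by group); grey marks fewer than 3 covered CpGs. Row 5 is at 28.8% to 59.6% in all libraries right of the old ones, and row 3 is at 19.8% and 24.0% with 4 doses.

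To follow all members on one scale, the share of the gain held was computed for each tile and library: 0% is the fetal mean and 100% the mean of young and old. Both ages are pooled in the 100%, although the median member was at 74.9% in young and 81.7% in old libraries. The shares are thus not shares of what donors of 1 age held. The median share over members, averaged over the libraries of a group, was 79.5% ± 4.93 from 10 young cells (SD, n = 3), 95.9% from 50 and 94.0% from 500 young cells (n = 1 each), 81.1% ± 6.84 from 10 old cells (SD, n = 2), 88.0% from 50 old cells (n = 1) and 89.0% ± 4.44 from 500 old cells (SD, n = 3). It was 96.3% ± 4.47 with 0 doses (SD, n = 3), 95.7% ± 2.79 with 2 doses (SD, n = 3) and 100.6% ± 4.88 with 4 doses (SD, n = 2). The medians of the 3 libraries of 10 young cells, 84.2%, 79.8% and 74.4%, lay below those of the 3 with 0 doses, 101.1%, 92.2% and 95.6%. No test was made of such a summary over chosen tiles. These shares moved when library offsets taken from CpG-rich tiles of intermediate level were removed. With offsets from 34 such tiles, a choice made after seeing the data, the share was 56.4% from 10 young cells, 53.7% from 10 old cells and 92.3% with 0 doses. With the planned offsets, which rested on 4 tiles, it was 1.41% from 10 young cells and -7.35% from 10 old cells, and 73.1% with 0 doses. Such tiles need not stand for a library's level as a whole. The 34 tiles averaged 49.8% to 50.5% in the libraries of 10 young cells and 43.4% to 48.3% with 0 doses. Over all tiles tested, the median difference of 10 young cells from 0 doses was -3.83 points. Of 294 members covered in all 19 libraries, 134 held over 50% in every library and 43 held 75% or more in every library; none was under 50% in every library.

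The share held after transplantation went with the level at which a member began. From 10 young cells, members with a fetal mean under 20% held a median of 103%, those at 20% to 40% held 85.5%, those at 40% to 60% held 66.9% and those at 60% or more held 59.9%. From 10 old cells the same medians were 111%, 88.3%, 72.2% and 53.6%. With 0 doses they were 96.0%, 100%, 91.6% and 88.3%. The fetal level is also part of the share's own scale, so these are descriptions.

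**Figure D3:**
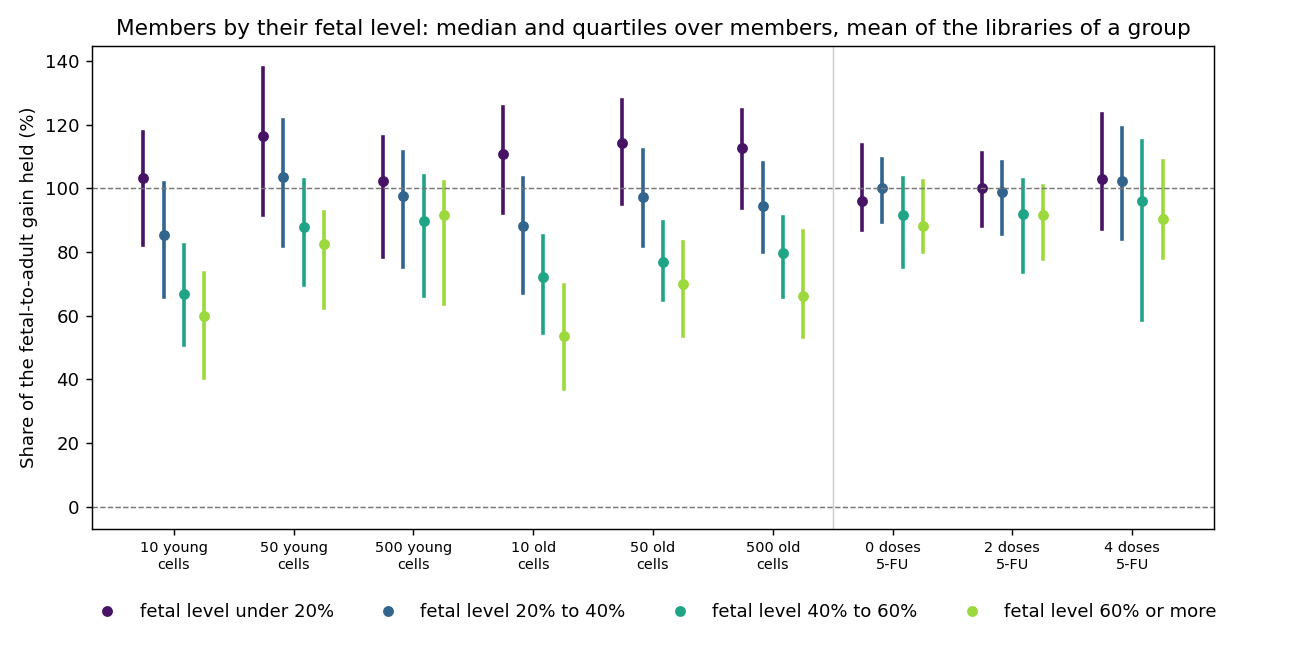
Share of the fetal-to-adult gain held in percent (y) by group (x), for members split by their fetal level (colours); points are medians and bars quartiles over members of the mean of a group's libraries, dashed lines mark 0% and 100%. From 10 young cells the medians run from 103% for members with a fetal level under 20% to 59.9% for those at 60% or more.

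One set of members behaved apart from the rest. In 17 members, on 9 chromosomes, 7 or more CpGs in a row lay at the same spacings as in another of them, in one orientation or the other; 13 shared the spacings 8, 6, 12, 2, 6 and 36 bp. Copies of one sequence would share such a layout; how reads matching several copies were placed is not given here, so the levels of single tiles are uncertain. The 17 tiles held 12 to 27 CpGs. Of all tiles, 74 carried these spacings, so members were 23.0% of them; none had lost methylation by the reverse rule. The set was noticed in the data and is given with no test of its own.

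In the libraries that chose them, the median over the 17 tiles was 49.2% and 52.4% in fetal, 77.3% and 79.5% in young, and 86.0% and 85.9% in old libraries. It was 75.2%, 64.2% and 59.3% from 10 young cells, 63.8% and 71.8% from 10 old cells and 70.8%, 79.6% and 58.4% from 500 old cells. In the mice given 5-FU schedules it was at 44.9%, 57.7% and 48.6% with 0 doses, 51.3%, 47.9% and 60.1% with 2 doses, and 58.2% and 50.6% with 4 doses. All 8 libraries of these mice thus lay nearer to the fetal medians than to the young ones. All 17 held under 25% of their gain on average with 0 doses, while of the other 400 members covered there 10 did. The 57 tiles with these spacings that are no members had medians of 53.9% and 57.2% in fetal, 74.3% and 76.8% in young and 49.4%, 61.3% and 54.4% in 0-dose libraries. Leaving out the 17 members moved the median share held with 0 doses to 97.5% only.

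**Figure D4:**
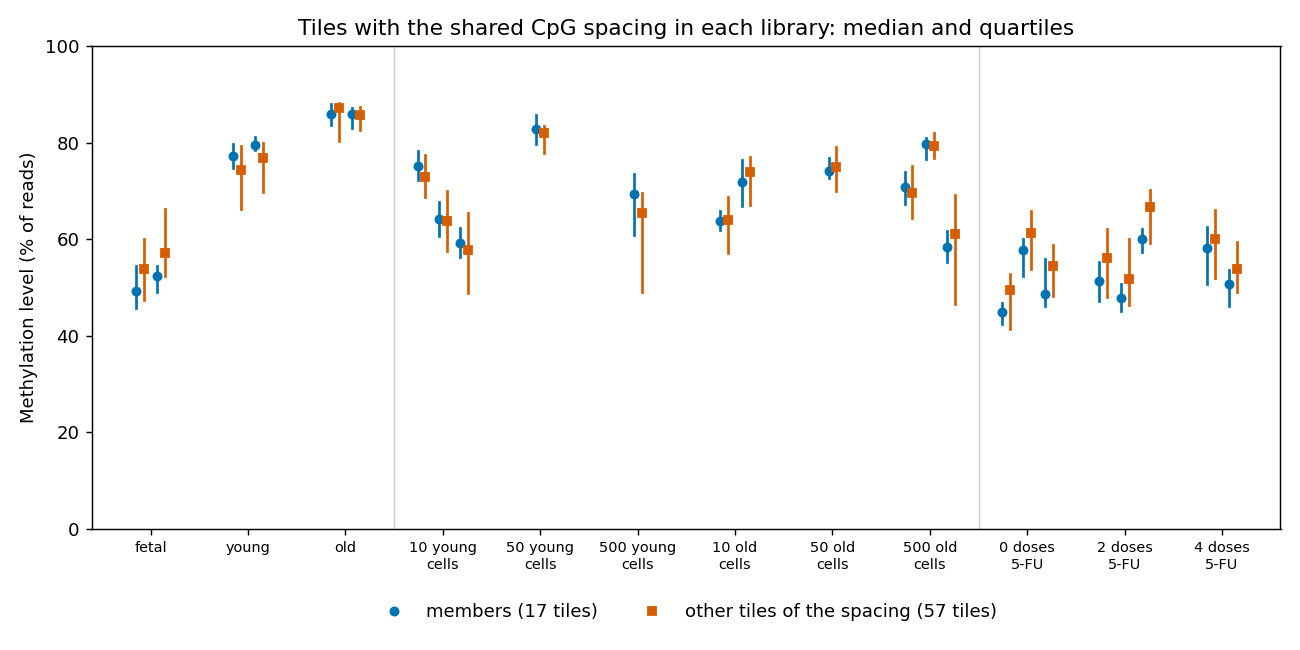
Methylation level in percent of reads (y) in each library (x, by group) of the 17 members with the shared CpG spacing (blue circles) and the 57 other tiles with it (orange squares); points are medians and bars quartiles over tiles. Medians of the 17 lie between 44.9% and 60.1% in all 8 libraries of the 5-FU mice, against 77.3% and 79.5% in the young ones.

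Whether 5-FU moved the members was tested in the 8 libraries of that experiment, over 58872 tiles of which 286 were members (214 members lacked coverage). A tile was called at a Benjamini-Hochberg adjusted p under 0.05 in a quasi-binomial F test with a difference of at least 10 points. No member was called for 2 or for 4 doses against 0, and 0% of all tiles were called in both. The groups did not overlap, with 2 doses higher, in 16 members (4.67% of all tiles) and lower in 12 (14.1% of all tiles); with 4 doses they were higher in 58 (15.9%) and lower in 23 (17.2%). The median difference of members was 0.19 points for 2 doses, against -0.51 over all tiles, and 3.08 points for 4 doses, against 0 over all tiles. At an unadjusted p under 0.05, 12 members (4.20%, against 3.74% of all tiles) passed for 2 doses and 35 (12.2%, against 6.47%) for 4 doses. With limma on arcsine levels no member was called either, and in 1 fit of all groups with 2 or more libraries 1 was called for 2 doses. On simulated reads of these depths, 13% of changes of 20 points and 66% of 30 points were recovered for 2 against 0 doses, so most changes of 20 points or less would not have been called at these depths. The simulated libraries varied less than the real ones: the fitted correlation of reads within a library was 0.00815, against 0.0155 in the data. Recovery in the data may therefore be lower.

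Transplantation was tested against the 0-dose mice in 11 libraries, over 76054 tiles of which 388 were members; all 3 comparisons share those 0-dose libraries, which differ from the transplanted ones in more than transplantation. After transplantation of 10 young cells, 8 members were higher and 42 lower, 50 of 388 or 12.9%, where 6.44% of all tiles were called (0.188% higher and 6.25% lower). Without overlap, 41 members were higher, against 2.72% of all tiles, and 95 lower, against 35.9%. Of the tiles of the reverse rule, 6 were higher and 64 lower, 70 of 389 or 17.995%. The median difference of members was -4.31 points, against -3.83 over all tiles. After 10 old cells no member was called, with 0.153% of all tiles called (0.00789% higher and 0.145% lower). Without overlap, 73 were higher (4.53% of all tiles) and 119 lower (44.3%). Of the tested members, 128 (33.0%, against 21.2% of all tiles) passed an unadjusted p of 0.05 and the smallest adjusted p was 0.0549; limma on arcsine levels called 41. Of the tiles of the reverse rule, 6 were called for 10 old cells and 10 for 500 old cells, all lower. After 500 old cells, 5 members were higher and 2 lower, with 0.289% of all tiles called (0.0447% higher and 0.245% lower). Without overlap, 52 were higher (4.48% of all tiles) and 69 lower (26.4%). The median difference was -0.44 points, against -1.58 over all tiles. With library offsets removed, 106 members (planned, 4 tiles) or 85 (34 tiles) were called for 10 young cells and 85 or 60 for 10 old cells, of which 102, 81, 83 and 59 were lower; for 500 old cells 40 or 14 were called. These counts rest on few libraries: without the 0-dose library of replicate 1 none was called for 10 young or 500 old cells, without replicate 3 of that group 7 were called for 10 young cells and 0 for 500 old cells, and without replicate 2 there were 37 and 1. Without replicate 2 or 3 of 10 young cells, 29 and 17 were called, and leaving out libraries of 500 old cells gave 0, 2 and 1. With the 2-dose group in place of the 0-dose group, 20 members were called for 10 young cells and 0 for 500 old cells.

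At the tiles with the largest called falls after 10 young cells, the mean of these libraries lay below the fetal mean. In chr9:35275001-35276000 and chr5:115041001-115042000 a single library still lay above it. The tiles were chosen for their falls, so low levels there follow in part from the choice. Levels in the tests are over the CpGs of the transplant fit, and fetal means over those of the rule. The tile chr9:35275001-35276000 was at 40.4%, 24.6% and 16.0% from 10 young cells, against 76.7%, 75% and 65% with 0 doses, and its fetal mean was 34.2%. It fell by 45.2 points (adjusted p = 0.0115, quasi-binomial F test). From 500 old cells it was at 25.5%, 38.1% and 23.5%, 43.2 points below the same 0-dose libraries (adjusted p = 0.0402), and 28.8 points below the 2-dose group (adjusted p = 0.198). In chr5:115041001-115042000 the levels were 10.4%, 15.7% and 28.5% from 10 young cells, against 60.4%, 47.0% and 58.0% with 0 doses (adjusted p = 0.0106), with a fetal mean of 25.2%. From 500 old cells that tile was at 15.7%, 24.4% and 22.6% (adjusted p = 0.0384). The third, chr17:34333001-34334000, was at 23.2%, 25.4% and 21.8% from 10 young cells, against 69.9%, 40.4% and 65.5% with 0 doses (adjusted p = 0.0123), with a fetal mean of 37.1%. In each of these comparisons the groups did not overlap.

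The tiles with the largest called rises were chosen against these 0-dose libraries, so low 0-dose levels follow in part from the choice. Levels in the tests are again over the CpGs of the fit, and fetal, young and old values over those of the rule. For chr17:26576001-26577000 these were 12 and 24 CpGs. The 0-dose means of the tiles lay below the mean of young and old. Those of chr17:26576001-26577000 and chr14:22810001-22811000 were nevertheless at or above the young mean. The tile chr10:8269001-8270000 was at 85.1%, 78.5% and 71.8% from 10 young cells, against 26.4%, 65.1% and 39.1% with 0 doses (adjusted p = 0.0235). Its 0-dose mean of 43.5% lay below its fetal mean of 57.0%, and its young and old means were 86.0% and 86.3%. In chr8:73340001-73341000 the levels were 77.7%, 74.2% and 72.6% from 10 young cells, against 52.4%, 24.1% and 54.7% with 0 doses (adjusted p = 0.0164), and from 500 old cells they were 79.6%, 77.6% and 81.1% (adjusted p = 0.0373). Rank 8 by gain, chr17:26576001-26577000, was at 85.4%, 91.9% and 87.7% from 10 young cells, against 62.8%, 66.8% and 55.2% with 0 doses (adjusted p = 0.0123); it was at 59.6% and 60.5% in young and 91.0% and 90.9% in old libraries. With the 2-dose group in place of the 0-dose group its difference was 8.42 points instead of 26.7 (adjusted p = 0.203), and that of chr10:8269001-8270000 was 22.2 instead of 35.0 (adjusted p = 0.0418). After 500 old cells, chr11:5907001-5908000, a tile of the shared spacing, was at 49.7%, 57.4% and 35.5%, against 15.4%, 9.8% and 8.9% with 0 doses (adjusted p = 0.0133). Its 0-dose mean over the CpGs of the fit was 11.4%. Over the CpGs of the rule its fetal, young and old means were 10.7%, 47.6% and 54.3%. Over the latter CpGs, the lowest 0-dose mean among the 17 tiles of the shared spacing was 14.9%. The tile chr14:22810001-22811000, 1178 bp upstream of Zfp503, a zinc-finger repressor whose promoter is printed above, was at 73.1%, 74.0% and 71.3% from 500 old cells, against 48.5%, 44.6% and 39.0% with 0 doses (adjusted p = 0.0381). Again no groups overlapped in these tests. The fetal means of chr8:73340001-73341000, chr17:26576001-26577000 and chr14:22810001-22811000 were 5.49%, 10.0% and 5.31%, below all their 0-dose libraries. Of the 17 tiles with the shared spacing, all were higher from 10 young, 10 old and 500 old cells than with 0 doses, with median differences of 15.4, 18.1 and 20.4 points; 2, 0 and 2 of them were called.

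**Figure D5:**
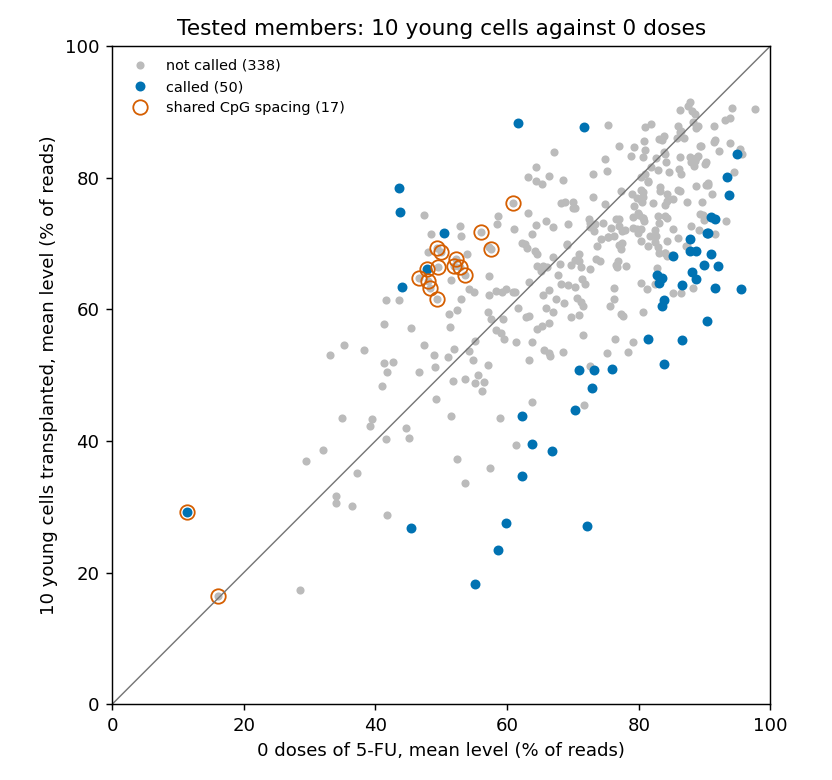
Mean methylation level in percent of reads of the 388 tested members after transplantation of 10 young cells (y, n = 3) and with 0 doses of 5-FU (x, n = 3); each point is a tile, blue points are the 50 called, orange rings the 17 tiles with the shared spacing, and the line marks equal levels. Of the called tiles 42 lie below the line and 8 above it.

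Donor age and cell number gave no called member. On simulated reads, 7% of changes of 20 points and 51% of 30 points were recovered for 10 young cells against 0 doses. The simulated libraries varied less than the real ones, and 10 old cells had only 2 libraries. The lack of calls, here and for 10 old cells against 0 doses, thus does not show that levels were the same. For 10 old against 10 young cells the median difference of members was 0.73 points, against 0.04 over all tiles, and 9 members (2.32%, against 2.02% of all tiles) passed an unadjusted p of 0.05. For 10 against 500 old cells it was -1.97 points, against -1.08 over all tiles, and 17 members (4.38%, against 3.04% of all tiles) did. Without overlap, 42 members were higher from 10 old than from 10 young cells (9.33% of all tiles) and 27 lower (8.47%); from 10 against 500 old cells 23 were higher (4.61%) and 83 lower (23.0%). Over all tiles 0% were called in both, and limma on arcsine levels called no member in either. The 2 comparisons share the libraries of 10 old cells.

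The members at the ends of the range show how far single tiles differed. The tile chr9:16665001-16666000 was at 61.4% and 67.9% in fetal, 90.5% and 91.2% in young, and 88.9% and 88.8% in old libraries, but between 59.6% and 78.5% in all 19 other libraries. Next came chr8:11279001-11280000, described above, and chr1:184188001-184189000, a tile of the shared spacing, which held between -23.2% and 87.0% of its gain. At the other end, chr11:97864001-97865000 held at least 102% of its gain in each of the 19, chr6:52113001-52114000 at least 100.8% and chr7:106500001-106501000 at least 100.6%. Their fetal means were 13.8%, 11.3% and 18.3%, their young means 50.5%, 49.2% and 56.5% and their old means 61.1%, 41.4% and 46.3%. These 3 tiles thus lay above the mean of young and old in all libraries that did not choose them.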

How the data were processed

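RRBS was measured in 25 libraries. Each deposited file lists CpGs with a fraction written as methylated and total reads, which was used, and the authors' score, which on the files equalled that share scaled up and rounded down and was not tested. The submitters' processing notes name mm9 as the build; aligner, caller and duplicate handling were not given in the sources used. Summed over CpGs, libraries held 22835325 to 105187091 reads, with a median of 10 to 54 per CpG. A read that covers several CpGs is counted at each, so the sums exceed the number of reads sequenced. Reads carry no molecular identifiers, and errors from counting alone are lower limits.

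Members, lists and tests were chosen with earlier results of these data known. CpGs with 5 or more reads in every library of a fit were summed in 1000-bp tiles, and tiles of 3 or more CpGs on the 19 autosomes were kept. A quasi-binomial model with a mean per group and Williams weights was fitted to the reads, with dispersions moderated by limma 3.58.1 (R 4.3.3, trend on depth, at least 1), an F test and Benjamini-Hochberg adjustment over all tiles. The 5-FU fit had 8 libraries (5 residual degrees of freedom) and the transplant fit 11 (7). On simulated reads, 4.10% and 3.85% of unchanged tiles had p under 0.05. These reads varied less between libraries than the real ones, so the shares may not hold for the data. Williams weights were set from the median over tiles because on simulated reads the mean gave fewer small p-values than the nominal share; counts of real calls with the mean had then been seen, and its values are given below as an alternative.

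Tiles named follow a rule fixed with the design: the 10 largest gains, for each test the 3 largest rises and falls among called members whose groups did not overlap, runs, tiles at the threshold and at the ends of the range. Its part on genes needed an annotation of mm9; RefSeq promoters (GRCm38.p6) placed by CpG spacing were used instead, a choice made after seeing the data. In a first search over whole chromosomes 95.6% of 4382 placed promoters lay within 2 kb of where their neighbours put them, and 93.4% of 2639 in a second search between these; the others were dropped. Groups deposited with 1 library entered no test. Python 3.11.15, numpy 2.4.6, pandas 2.3.3, numba 0.67.0 and matplotlib 3.10.9 were used. Replicate numbers gave no clear sign of pairing. Deviations of same-numbered libraries correlated at -0.013 to 0.032 (5-FU) and -0.0597 to 0.137 (transplant). Those of different-numbered libraries correlated at -0.0379 to 0.0203 and -0.144 to 0.108. In a group of 2 libraries the deviations mirror each other, so these values cannot exclude a pairing. The numbers are those of the replicate label. Titles number the libraries of 10 old cells differently. By those the transplant correlations of same-numbered libraries were -0.1368 to 0.1155, again with no clear sign of pairing.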

Additional observations from a re-analysis of the deposited data

How the results depend on the processing

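Counts of called members moved with the processing, and the causes were not tested. For 10 young cells against 0 doses (50 called) the count was 30 at a difference of 20 points, 27 with 10 reads per CpG, 14 in 1 fit of all groups with 2 or more libraries, 0 with only both groups in the fit, 33 with Williams weights by the mean, 20 with the 2-dose group in place of the 0-dose group, and 0 to 37 when leaving out 1 library. For 500 old cells (7 called) it was 31 with limma on arcsine levels, 3 in the fit of all groups, 0 with only both groups, 1 with weights by the mean, 14 with chromosome X added, 0 with the 2-dose group and 0 to 2 leaving out 1 library. For 10 old cells (0 called) limma gave 41 and adding chromosome X 15; for 2 doses (0 called) the fit of all groups gave 1. Leaving out 1 library gave 0 to 0 for the other comparisons; where this left 1 library of 10 old cells or 4 doses, that library was assumed to vary like the other groups. With the replicate number, which gave no clear sign of pairing, as a block, 0 were called for 10 young and for 500 old cells. The block changed no other count.

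Removing library offsets at CpG-rich tiles of intermediate level, as planned, rested on 4 tiles, so a looser choice of 34 tiles was added after seeing the data. Called members were then 106 (4 tiles) and 85 (34 tiles) for 10 young cells, 85 and 60 for 10 old cells, and 40 and 14 for 500 old cells. Shares held became, with 4 tiles, 73.1%, 71.4% and 85.7% for 0, 2 and 4 doses, 1.41%, 18.02% and 62.5% for 10, 50 and 500 young cells and -7.35%, 1.11% and 16.9% for 10, 50 and 500 old cells. With 34 tiles they were 88.4% and 94.5% for 2 and 4 doses, 56.4% and 75.7% for 10 and 50 young cells and 53.7%, 57.4% and 72.5% for 10, 50 and 500 old cells. These 34 tiles themselves averaged 38.6% and 39.9% in the fetal, 38.7% and 38.7% in the young, and 51.3% and 51.9% in the old libraries. With CpGs covered in all 25 libraries the share from 50 young cells was 102%. The number of members was 249 with 5 CpGs per tile, 163 at a threshold of 30 points and 509 to 918 leaving out 1 library. The named tiles of the tests were recomputed in each setting, so a tile counts once per setting. Of these values 116 still passed the test and 77 did not, with sizes that moved by over 1.5 times given beside them. All kept their direction. The tiles had been chosen as called with groups that did not overlap, and most settings reuse the same reads, so the kept direction is no support.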
